A study of Mus musculus with 8 samples.

Results

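Costimulatory receptors of the TNF receptor superfamily and the TRAF adaptors that bind their tails were examined in sorted mouse Treg (regulatory T) cells, a CD4 lineage that holds immune responses in check. The set holds 10 genes of the 57180 in the deposited table, taken by symbol: the 7 receptor genes Tnfrsf4, Tnfrsf9, Tnfrsf18, Tnfrsf1b, Tnfrsf25, Tnfrsf14 and Cd27, and the 3 adaptor genes Traf1, Traf2 and Traf3. RNA of Treg cells sorted by flow cytometry was sequenced in 8 libraries, 5 labelled chimera WT (WT 1 to 5) and 3 labelled chimera KO (KO 1 to 3). The series title concerns copper and Treg suppression. The labels used here give no name of the deleted gene, strain, age, treatment or make-up of the chimeras, so the targeted gene could not be checked and the names WT-labelled and KO-labelled are used. WT 2 and WT 3 carry library names with other leading letters (FY) than the other 6 libraries (CY), and no KO-labelled library shares them.

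Some of these receptors appear on T cells after activation, while others, such as CD27, are also carried by naive T cells. They bind trimeric ligands of the TNF superfamily, which are carried mainly by antigen-presenting cells. The engaged receptor has no enzyme of its own: it gathers TRAF proteins, which recruit ubiquitin ligases and start NF-kappaB and MAP kinase signalling. In Treg cells GITR (Tnfrsf18), OX40 (Tnfrsf4), TNFR2 (Tnfrsf1b) and the receptor DR3 (Tnfrsf25) are known for supporting survival and expansion, and GITR and OX40 are widely used as Treg surface markers.

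Most of the receptor genes cluster in the genome, and positions of all members and some of their start regions are given here. On the GRCm38 (mm10) build with GENCODE M21, 6 of the 7 receptor genes lie within 10.8 Mb of chromosome 4. Tnfrsf4 (ENSMUSG00000029075, chr4:156013843-156016612, plus strand) and Tnfrsf18 (ENSMUSG00000041954, chr4:156026164-156028895, plus strand) are direct neighbours 9.55 kb apart. Tnfrsf9 (ENSMUSG00000028965) spans chr4:150914562-150946102, Tnfrsf1b (ENSMUSG00000028599) chr4:145213463-145246870 beside Tnfrsf8, Tnfrsf25 (ENSMUSG00000024793) chr4:152115934-152120119, and Tnfrsf14 (ENSMUSG00000042333) chr4:154921933-154928563. Cd27 (ENSMUSG00000030336) lies at chr6:125232622-125237010, Traf1 (ENSMUSG00000026875) at chr2:34941750-34961772, Traf2 (ENSMUSG00000026942) at chr2:25517982-25546940 and Traf3 (ENSMUSG00000021277) at chr12:111166370-111267153.

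The 250 bases upstream of RefSeq starts (GRCm38.p6) were found for all 10 members, in 12 windows. The NF-kappaB consensus, searched by name on both strands, was found in 3 of these 12 windows, 1 each for Tnfrsf9, Tnfrsf25 and Traf3, and in 7.25% of all 32851 windows of that length. The AP-1 motif TGANTCA was found in 1 of the 12 windows, that of the inner Tnfrsf9 start, and in 6.75% of all windows. There the NF-kappaB matches, which overlap one another, cover bases 33 to 43 before the start. The AP-1 match covers bases 9 to 15, where the motif TGANTCA fits the letters of either strand. The windows of Tnfrsf18 and Traf1 held neither motif, and a link of the motifs to the levels was not tested. Capitals mark these matches below; windows without capitals hold neither set of letters. The windows are chr4:150927749-150927998 and chr4:150919905-150920154 for the inner and outer starts of Tnfrsf9, chr4:156026072-156026321 for Tnfrsf18, chr4:156013445-156013694 for Tnfrsf4, all on the plus strand, and chr2:34961773-34962022 on the minus strand for Traf1. Each is printed 5′ to 3′ on the gene's strand.
Tnfrsf9 inner start: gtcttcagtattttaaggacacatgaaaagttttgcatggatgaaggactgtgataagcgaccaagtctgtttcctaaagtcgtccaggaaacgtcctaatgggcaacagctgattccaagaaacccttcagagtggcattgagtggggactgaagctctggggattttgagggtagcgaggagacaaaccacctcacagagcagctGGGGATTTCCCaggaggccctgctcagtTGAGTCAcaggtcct
Tnfrsf9 outer start: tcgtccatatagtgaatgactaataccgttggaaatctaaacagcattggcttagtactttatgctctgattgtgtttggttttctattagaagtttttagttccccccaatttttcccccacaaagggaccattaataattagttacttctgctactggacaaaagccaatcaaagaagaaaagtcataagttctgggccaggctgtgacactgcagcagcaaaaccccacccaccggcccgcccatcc
Tnfrsf18: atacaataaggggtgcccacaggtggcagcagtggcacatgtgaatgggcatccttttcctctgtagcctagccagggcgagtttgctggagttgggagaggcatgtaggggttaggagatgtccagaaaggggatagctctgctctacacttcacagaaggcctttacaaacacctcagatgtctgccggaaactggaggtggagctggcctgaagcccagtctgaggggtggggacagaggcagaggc
Tnfrsf4: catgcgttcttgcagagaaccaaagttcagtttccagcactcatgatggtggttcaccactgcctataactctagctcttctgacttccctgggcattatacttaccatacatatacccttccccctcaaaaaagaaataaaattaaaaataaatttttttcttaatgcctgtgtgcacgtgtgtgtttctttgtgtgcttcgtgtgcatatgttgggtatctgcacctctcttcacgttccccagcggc
Traf1: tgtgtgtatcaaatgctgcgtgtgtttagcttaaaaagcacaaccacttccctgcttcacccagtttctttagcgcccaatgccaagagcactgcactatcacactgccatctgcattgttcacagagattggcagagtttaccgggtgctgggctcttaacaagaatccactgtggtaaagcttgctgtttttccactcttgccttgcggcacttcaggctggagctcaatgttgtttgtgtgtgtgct

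Library totals ranged from 10544754 to 17977089 estimated counts with the WT label and from 4314445 to 8477879 with the KO label. Protein-coding genes held 81.9 to 90.3% of counts under the WT label, against 65.0 to 78.4% under the KO label. Genes with at least 10 counts numbered 8201 in WT 4 and 9422 in WT 5, against 12398 to 14245 in the other libraries. Summed levels are given next in normalised CPM, the CPM of edgeR, which scales counts to a common library size, here with TMM factors (the trimmed mean of M-values). These factors were 0.40 in WT 4 and 0.69 in WT 5, against 1.08 to 1.49 in the other libraries, and a low factor raises normalised CPM. Treg markers (5 genes) ranged from 1491 to 6001 in the WT-labelled and 677 to 2534 in the KO-labelled libraries, and T cell markers (6 genes) from 1936 to 18118 and from 1185 to 1973. Foxp3, which defines Treg cells, had 144, 422, 499, 22.3 and 8.99 counts in WT 1 to 5 and 304, 18 and 135 in KO 1 to 3, with the 3 lowest values in WT 4, WT 5 and KO 2. B cell markers (8 genes) ranged from 199 to 3167 under the WT label and from 80.2 to 194 in the KO-labelled libraries, NK cell markers (7 genes) from 60.1 to 3903 and 0.320 to 58.8, CD8 T cell markers (2 genes) from 1.22 to 236 and 3.70 to 62.7, and erythroid markers (7 genes) from 0 to 9102 and 0.449 to 7.34. Myeloid markers (9 genes) spanned 4.72 to 109 and 5.50 to 37.3, neutrophil markers (5 genes) 0 to 233 and 3.22 to 45.2, and plasma cell markers (3 genes) 0 to 1.24 and 0.0875 to 13.3. The B, NK, CD8 and neutrophil sums were highest in WT 4 and the erythroid sum in WT 5, while Ncr1, Camp and Sdc1 were at 0 counts in all 8 libraries. Values without WT 4 and WT 5 are given beside each member below.

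No member passed the test of KO-labelled against WT-labelled libraries, yet 9 of the 10 had lower fitted levels in the KO-labelled group. Tnfrsf9, the gene of the costimulatory receptor 4-1BB, and Tnfrsf18, that of GITR, had the largest differences among the members. All 10 members passed the filter on low counts. The edgeR quasi-likelihood test, adjusted over 14755 genes, found 0 of them past an adjusted p of 0.05, where the share over all genes tested was 0%. At an unadjusted p under 0.05, 3 members were lower (Tnfrsf9, Tnfrsf18 and Traf1), against 6.43% of all genes tested. DESeq2, another count model, had the same 3 members lower at an adjusted p under 0.05, against 11.1% of the genes it tested. In simulated data every gene was given the same spread, the common dispersion of 1.67, and 100 genes were changed 4-fold and 100 genes 16-fold. There 75 of 106 DESeq2 calls were false and edgeR made 0 calls. Spread and number of changed genes were set in the simulation, so this share cannot be carried over to the DESeq2 calls above. Log2 changes were below 0 for 56.8% of all genes tested and 66.5% of the protein-coding ones. The members' median log2 change was −1.55, where all genes gave −0.42 and the protein-coding ones −0.86. Without WT 4 and WT 5 it was −0.69, again with 9 of 10 below 0, where 53.5% of genes tested were below 0. Without the FY libraries the median was −1.71, with 9 of 10 below 0, where 50.7% of genes tested were below 0 (median −0.05). Without WT 5 alone 7 of 10 were below 0 (median −0.99), where 54.0% of genes tested were (median −0.23). A bulk library cannot tell fewer cells of a type from less RNA per cell. Which animal gave which library is not labelled, and the p-values reflect library-to-library spread, which may be technical.

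**Figure D1:**
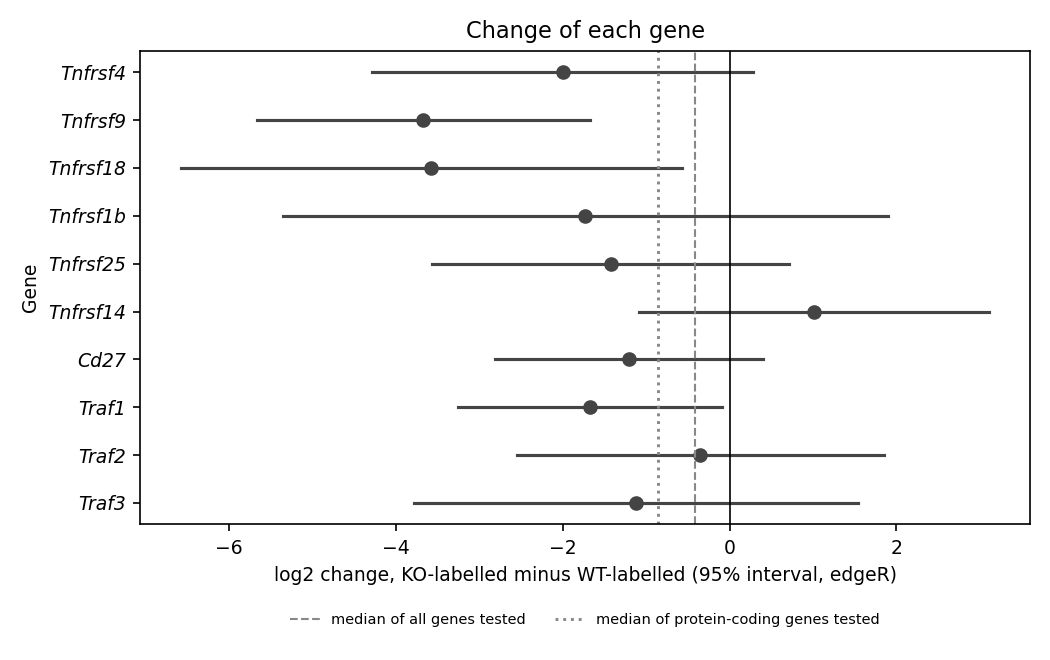
Log2 change of each of the 10 genes (points, KO-labelled minus WT-labelled) with its 95% interval from edgeR; dashed and dotted lines mark the medians of all and of protein-coding genes tested, −0.42 and −0.86. The intervals of Tnfrsf9, Tnfrsf18 and Traf1 lie below 0 before adjustment, and Tnfrsf14 alone has a positive estimate.

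Tnfrsf9 encodes 4-1BB, a receptor that appears on T cells after activation. It stood at 82.1, 62.6, 74.5, 121 and 217 normalised CPM in WT 1 to 5 and at 6.12, 9.72 and 10.4 in KO 1 to 3. Every KO-labelled library lay below every WT-labelled one. The means were 111 ± 63.1 (SD, n = 5) and 8.74 ± 2.29 (SD, n = 3), a log2 change of −3.67 (SE 0.89, 95% interval −5.67 to −1.68) or 12.7-fold. Adjusted p-values were 0.325 (edgeR) and 1.7e-06 (DESeq2). Counts were 722 to 1558 in the WT-labelled and 58 to 70 in the KO-labelled libraries. Without WT 4 and WT 5 the log2 change was −3.02 (edgeR adjusted p = 0.221), and over all alternatives it ranged from −4.26 to −2.86. Camta1, on the opposite strand, overlaps the span of Tnfrsf9, but shares 0 of its exon bases.

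Tnfrsf18 encodes GITR, a receptor that Treg cells carry at high levels. It stood at 209, 53.5, 287, 1356 and 565 normalised CPM in WT 1 to 5 and at 104, 4.33 and 15.8 in KO 1 to 3. The groups overlapped, since KO 1 lay above WT 2. The log2 change was −3.57 (SE 1.34, 95% interval −6.57 to −0.57), with an adjusted p of 0.325 in edgeR and 0.00629 in DESeq2. Its size rested on single libraries: it was −2.18 without WT 4 and WT 5, −5.71 without KO 1 and −2.29 when KO 1 was the only KO-labelled library. The antisense gene Gm16008 shares 414 of the 1524 exon bases of Tnfrsf18. The kit does not mark strand, so reads within the shared stretch cannot be told apart. Gm16008 had 40.8 and 40.9 counts in KO 1 and KO 2, and at most 2.02 in the other libraries; in KO 2 this was more than the 29.0 counts of Tnfrsf18, whose value there is uncertain.

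Tnfrsf4 encodes OX40, which promotes survival of activated T cells. It stood at 185, 244, 247, 1011 and 612 normalised CPM in WT 1 to 5 and at 265, 67.9 and 12.3 in KO 1 to 3. KO 1 thus lay within the WT-labelled range, above 3 of the 5 libraries, and KO 2 and KO 3 below all of them. The log2 change was −2.0 (SE 1.02, 95% interval −4.28 to 0.28, edgeR adjusted p = 0.372), −3.57 without KO 1 and −0.86 with KO 1 as the only KO-labelled library. Without WT 4 and WT 5 it was −1.0.

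Cd27 encodes a receptor of naive and memory T cells that binds CD70. Its levels were 270, 178, 91.6, 380 and 434 normalised CPM in WT 1 to 5 and 198, 63.3 and 91.6 in KO 1 to 3, so the groups overlapped. The log2 change was −1.20 (SE 0.72, 95% interval −2.81 to 0.40, edgeR adjusted p = 0.41). It was −0.60 without WT 4 and WT 5. Cd27 lies wholly within the span of Vamp1 on the other strand, with 0 exon bases shared.

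Tnfrsf25 encodes DR3, a receptor with a death domain that binds TL1A. It stood at 37.6, 16.9, 49.6, 53.2 and 113 normalised CPM in WT 1 to 5 and at 30.3, 17 and 12.9 in KO 1 to 3. Here KO 1 and KO 2 overlapped the lowest WT-labelled library, WT 2. The log2 change was −1.43 (SE 0.96, 95% interval −3.57 to 0.72, edgeR adjusted p = 0.452), and −0.78 without WT 4 and WT 5.

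Tnfrsf1b encodes TNFR2, the TNF receptor of Treg cells. Its levels were 10.7, 41.1, 10.6, 0.702 and 252 normalised CPM in WT 1 to 5 and 8.18, 11.9 and 37.1 in KO 1 to 3. This was the widest spread of the 10 members within the WT-labelled group, a 359-fold range, and the KO-labelled libraries lay inside it. The log2 change of −1.73 (95% interval −5.36 to 1.90) turned to 0.26 without WT 5 and was −0.10 without WT 4 and WT 5.

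Tnfrsf14 encodes HVEM, which binds both LIGHT and the inhibitory receptor BTLA, and was the least abundant member by normalised CPM. It stood at 2.98, 3.49, 3.08, 1.42 and 0.287 normalised CPM in WT 1 to 5 and at 3.0, 4.48 and 6.26 in KO 1 to 3. KO 2 and KO 3 were the highest libraries and KO 1 lay among WT 1 to 3. The log2 change was 1.01 (95% interval −1.09 to 3.11, edgeR adjusted p = 0.565), and 0.55 without WT 4 and WT 5. Its estimated counts were not whole in any of the 8 libraries, as for Traf2. Counts were also not whole in 6 libraries for Tnfrsf1b, 5 for Cd27, 3 each for Tnfrsf18 and Traf1 and 1 for Tnfrsf9. Those of Tnfrsf14 were between 29.98 and 40.27 in all but WT 4 and WT 5, whatever the library total. Its normalised differences between the 6 libraries other than WT 4 and WT 5 thus follow the scaling and not the counts.

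**Figure D2:**
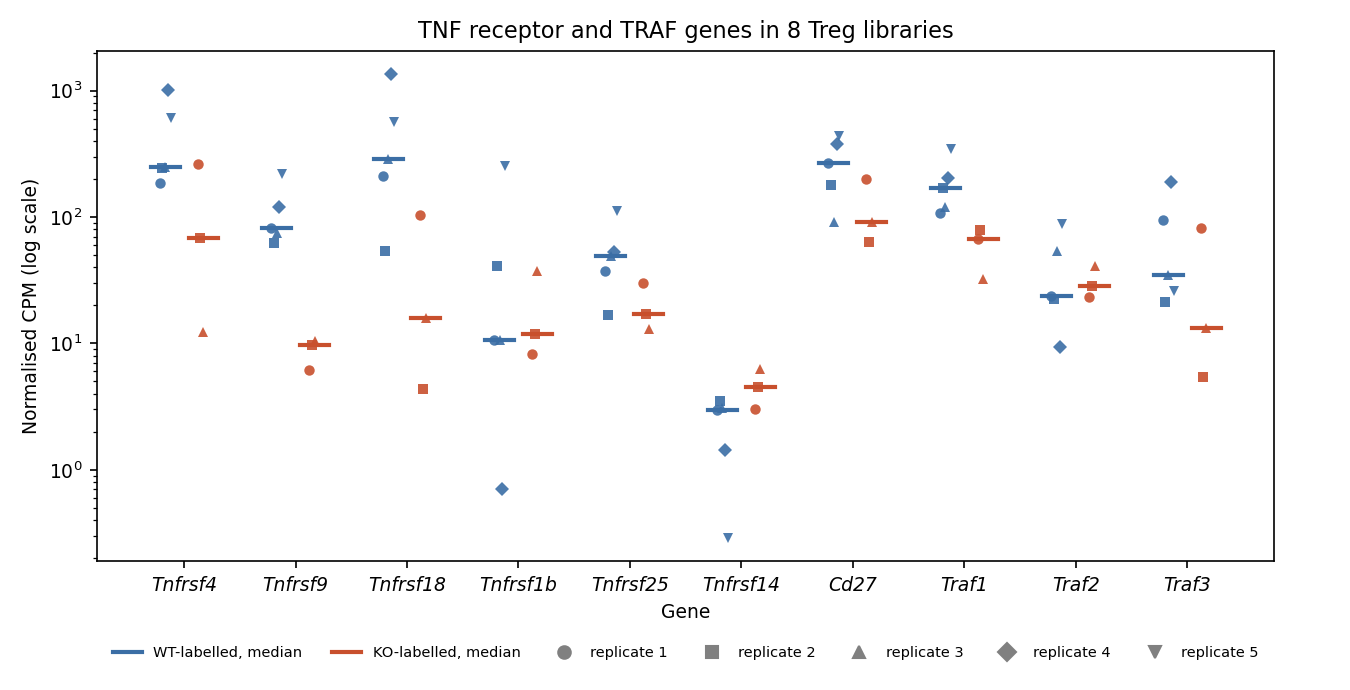
Normalised CPM (log axis) of the 10 genes in each library; blue marks WT-labelled (5), red KO-labelled (3), symbols the replicate number and bars the group median. Tnfrsf9 and Traf1 are the genes whose groups do not overlap. WT 4 or WT 5, the libraries with the lowest TMM factors (0.40 and 0.69), is the highest library for 9 of the 10 genes.

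Among the adaptors, Traf1 had values apart between the groups, while Traf2 and Traf3 overlapped. Traf1, an NF-kappaB target that joins TRAF2 complexes, stood at 108, 170, 121, 202 and 346 normalised CPM in WT 1 to 5 and at 66.6, 79.3 and 32.0 in KO 1 to 3. The groups did not overlap, the KO-labelled values all being lower. For Traf1 the log2 change was −1.68 (SE 0.71, 95% interval −3.26 to −0.09; adjusted p = 0.33 in edgeR, 0.0191 in DESeq2). Without WT 4 and WT 5 it was −1.14. Traf2, which brings the ubiquitin ligases of the IAP family to the receptors, had 23.6, 22.6, 53.7, 9.35 and 87.9 normalised CPM in WT 1 to 5 and 23.1, 28.5 and 41.2 in KO 1 to 3. All KO-labelled values lay within the WT-labelled range, and the log2 change of −0.35 (95% interval −2.55 to 1.85) was 0.30 with total counts only, 0.22 without WT 5, −0.08 without WT 4 and WT 5, and 0.14 among protein-coding genes alone. Traf3, which with TRAF2 keeps the kinase NIK low and so restrains the non-canonical NF-kappaB route, had 94.6, 21.3, 34.9, 189 and 25.8 in WT 1 to 5. In KO 1 to 3 Traf3 had 81.8, 5.38 and 13.2. KO 2 and KO 3 were below all WT-labelled libraries and KO 1 above 3 of them. Its log2 change was −1.12 (95% interval −3.79 to 1.54), −0.61 without WT 4 and WT 5, −3.05 without KO 1, and 0.13 with KO 1 as the only KO-labelled library.

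Tnfrsf9 and Traf1 were the 2 of 10 members for which each KO-labelled library was below each WT-labelled one, against 4.49% of all genes tested. None was above, where 13.2% of all genes were. Leaving out WT 4 and WT 5 can only ease this condition, apart from the refitted scaling, so it is no check of these 2 members. Both met it there too, and the share over all genes was 10.9%. The choice of scaling decided the rest. By plain CPM, with total counts alone, Tnfrsf9 was the only member below (1.66% of genes) and Tnfrsf14 was above (18.9%). Per count of the T cell receptor genes Cd3d, Cd3e and Cd3g, a ratio chosen after the data were seen, 0 members were below (0.366% of genes) and Tnfrsf14 was above (22.1%). On that scale Tnfrsf9 stood at 62.3, 33.6, 64.6, 10.5 and 51.6 per 1000 Cd3 counts in WT 1 to 5 and at 5.60, 14.5 and 15.6 in KO 1 to 3, so that WT 4 overlapped the KO-labelled libraries. Traf1 on that scale stood at 82.2, 91.2, 105, 17.6 and 82.2 in WT 1 to 5 against 60.9, 118 and 48.0 in KO 1 to 3. The median per 1000 Cd3 counts was higher in the KO-labelled group for 5 of the 10 members. For Tnfrsf1b, Tnfrsf14 and Traf2 the median normalised CPM was higher there too; Cd27 (95.4 WT, 137 KO) and Traf3 (16.4 WT, 19.8 KO) turned. All 6 T cell markers, the Cd3 genes among them, had negative log2 changes (median −2.13), and the part of T cell content in the members' values was not tested.

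The rank of a gene within its own library uses no scaling between libraries. It does depend on how many genes the library detects. Tested genes at 0 counts numbered 3502 in WT 4 and 2094 in WT 5, against 475 to 1015 in the other libraries. By counts per length among the genes tested, Tnfrsf9 lay at percentiles 80.9 to 89.9 in the WT-labelled and at 38.8, 54.4 and 57.4 in the KO-labelled libraries. It was the only member whose groups did not overlap in rank, with each KO-labelled library below, as for 3.06% of all genes tested. Tnfrsf4 lay at percentiles 96.8 to 98.0 in all 5 WT-labelled libraries and at 98.4, 93.4 and 74.1 in KO 1 to 3. Tnfrsf18 lay at 87.9 to 98.0 and at 95, 51.3 and 77.0. Cd27 stayed high in every library, at 89.5 to 96.7 and 90.3 to 96.3. Traf1 overlapped in rank, at 81.1 to 89.6 under the WT label and 77.5, 84.1 and 69.4 in KO 1 to 3.

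**Figure D3:**
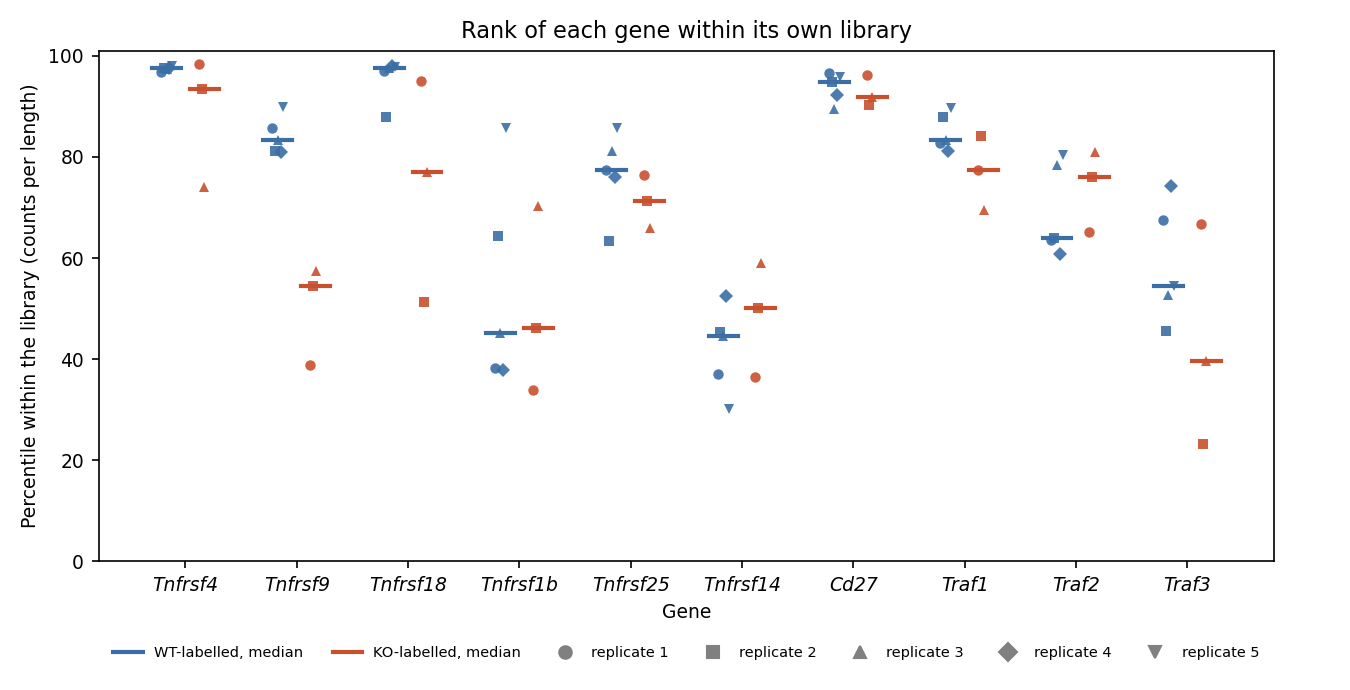
Percentile of each gene within its own library, by counts per length among the genes tested; colours, symbols and bars as in the plot of normalised CPM. Tnfrsf9 lies at 80.9 to 89.9 in the WT-labelled and at 38.8 to 57.4 in the KO-labelled libraries, while Cd27 is at 89.5 or above in all 8.

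Levels of different genes were compared as normalised CPM per kilobase of the deposited gene length. In the WT-labelled group the medians ran from Tnfrsf18 (266) and Tnfrsf4 (240) through Cd27 (173), Traf1 (49.5), Tnfrsf9 (38.8), Tnfrsf25 (29.9), Traf2 (11) and Traf3 (4.94) to Tnfrsf1b (2.80) and Tnfrsf14 (2.54). The ranges of neighbours in this order overlapped throughout, for example 49.6 to 1258 for Tnfrsf18 and 180 to 982 for Tnfrsf4. In the KO-labelled group Tnfrsf4 (65.9) and Cd27 (58.7) led, followed by Traf1 (19.4), Tnfrsf18 (14.6), Traf2 (13.2), Tnfrsf25 (10.3), Tnfrsf9 (4.6), Tnfrsf14 (3.82), Tnfrsf1b (3.12) and Traf3 (1.88). Tnfrsf9, the fifth in the WT-labelled order, was thus seventh in the KO-labelled one, below Traf2 in all 3 KO-labelled libraries.

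The direction among the other TNF receptor genes depended on the filter on low counts. Of 21 listed, 12 were tested; log2 changes were above 0 for 8 and below 0 for 4 (median 1.14, and 0.94 without WT 4 and WT 5 with 7 of 12 positive). With no filter 11 of 20 were negative (median −0.69), and at a mean of at least 5 CPM 5 of 9 were positive (median 0.27). The difference from the members was not tested. By edgeR 0 passed. By DESeq2, which gave no adjusted p for some of the 12, 1 was lower and 1 higher. Of all the genes it tested 11.1% were lower and 7.13% higher. Each KO-labelled library was above each WT-labelled one for 3 of the 12, Tnfrsf21, Tnfrsf10b and Tnfrsf11a, where the share over all genes was 13.2%; they were named after their values were seen. Tnfrsf21, which encodes the death receptor DR6, averaged 63.5 ± 20.4 (SD, n = 5) normalised CPM with the WT label and 214 ± 14.4 (SD, n = 3) with the KO label. Its log2 change of 1.76 (SE 0.58; adjusted p = 0.325 in edgeR, 0.0158 in DESeq2) was the only one of the list below 0.05 before adjustment. The death receptor gene Fas had 82.5 ± 93.0 and 33.1 ± 24.8, with 0 counts in WT 4 and WT 5; its log2 change was −1.31 and −2.06 without those libraries.

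Ligand genes had mostly negative log2 changes, at levels that varied between libraries. Of 18 listed, 10 were tested, 8 with negative log2 changes (median −1.58, and −1.72 without WT 4 and WT 5), and 0 passed in edgeR. Over all genes tested 56.8% had negative log2 changes, and 66.5% of the protein-coding ones. Ltb, the lymphotoxin beta gene, had 717 ± 905 (SD, n = 5) and 111 ± 64.4 (SD, n = 3) normalised CPM, with WT 4 alone at 2272. Its log2 change was −2.69 (adjusted p = 0.329 in edgeR, 0.0213 in DESeq2), −1.56 without WT 4 and −0.78 without WT 4 and WT 5. Tnfsf8, the gene of the CD30 ligand, had 125 ± 66.4 and 43.3 ± 44.3 (log2 change −1.54, and −2.75 without KO 1). The ligands of the members' own receptors ranged from 0 to over 1000 counts. Lta, whose product lymphotoxin alpha binds TNFR2, had 1 to 1691 counts in the WT-labelled and 5 to 636 in the KO-labelled libraries, and Tnf 1 to 490 and 1 to 156. Tnfsf14, the gene of the HVEM ligand LIGHT, reached 1147 counts in WT 3 and 220 in WT 2 and had at most 26 in the other 6 libraries. These 3, with the other ligands of the members, are named outside the rule. Tnfsf4 (OX40 ligand) and Cd70 had 0 counts in each of the 8 libraries, a result that up to 3 counts could give, and Tnfsf18 (GITR ligand) had 1 count in 1 library. Tnfsf9, the 4-1BB ligand gene, reached at most 70 counts, in KO 2. Btla, the receptor that binds HVEM, had 221 ± 157 and 126 ± 191, with 1 count in WT 4 (log2 change −0.81, and −3.84 without KO 1). Cd160, the other HVEM partner, was below the filter with at most 2 counts.

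Signalling genes next to the receptors and of NF-kappaB had no member past the edgeR threshold. Of 21 other TRAF and receptor-proximal genes 19 were tested, 16 with negative log2 changes (median −1.24). The share was 56.8% over all genes tested and 66.5% over the protein-coding ones. With total counts only 14 of the 19 were negative (median −0.52), where 45.3% of all genes tested were. DESeq2 had 4 lower, against 11.1% of the genes it tested. Tnfaip3, whose product A20 shuts NF-kappaB signalling off, had 673 ± 632 (SD, n = 5) and 124 ± 48.0 (SD, n = 3) normalised CPM (edgeR adjusted p = 0.358). The groups overlapped: WT 1 to 3 stood at 634 to 1443, WT 4 at 97.1 and WT 5 at 23.4, against 96.1 to 179 under the KO label. Its log2 change was −2.44, −3.11 without WT 4 and WT 5 and −1.57 without the FY libraries. Tank, a TRAF-binding regulator, had 389 ± 127 and 174 ± 73.3 (edgeR adjusted p = 0.358). Each KO-labelled library was below each WT-labelled one for Tank, as for 4.49% of all genes tested. Of the 14 NF-kappaB subunit, kinase and inhibitor genes 13 had negative log2 changes (median −1.01), and 12 of 14 without WT 4 and WT 5 (median −0.71). With total counts only 10 of 14 were negative (median −0.20). In either tool 0 passed, but DESeq2 gave no adjusted p for some of them, Nfkbia included. Nfkbia, the gene of the inhibitor IkappaB-alpha, had 483 ± 487 and 194 ± 12.7, with WT 4 alone at 1350. Its log2 change was −1.32, −0.45 without WT 4 and −0.37 without WT 4 and WT 5. Nfkbiz, an atypical nuclear IkappaB gene, had 331 ± 262 and 114 ± 76.2. For Nfkbiz WT 4 stood at 84.1 and WT 5 at 8.65, against 60.6 to 202 under the KO label. The log2 change of Nfkbiz was −1.53, −2.20 without WT 4 and WT 5 and −0.54 without the FY libraries.

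**Figure D4:**
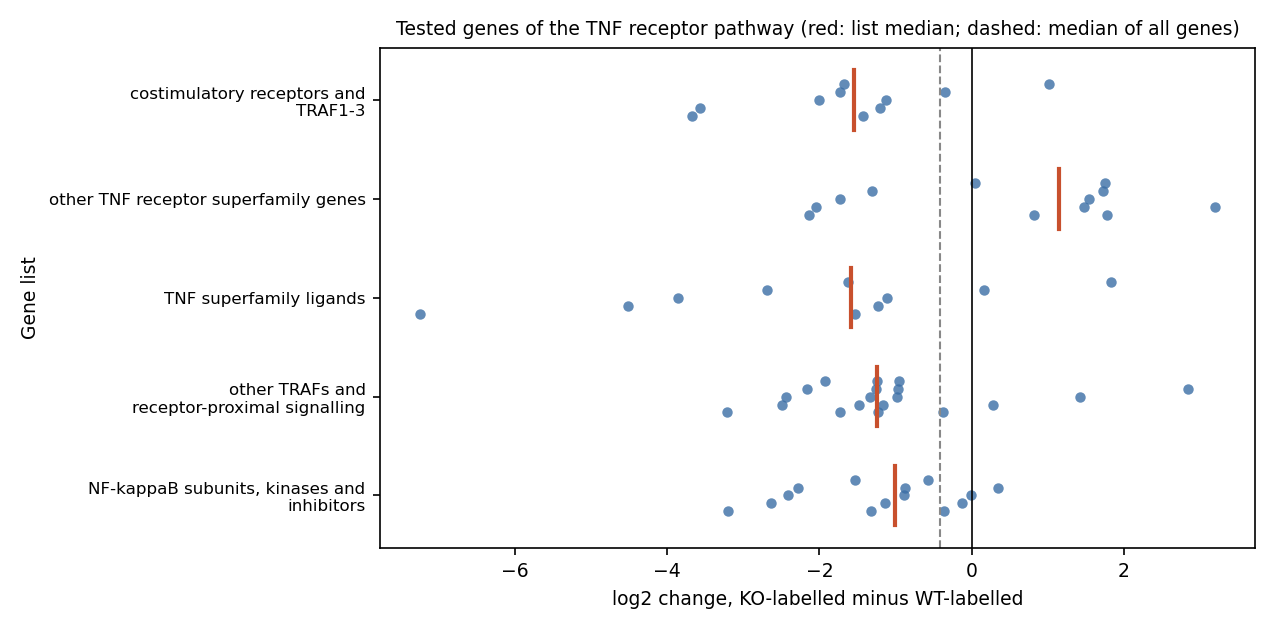
Log2 change (KO-labelled minus WT-labelled) of each tested gene in the lists of the pathway; red bars are list medians and the dashed line the median of all genes, −0.42. The other TNF receptor genes have a positive median (1.14) among the 12 tested, which is −0.69 among 20 with no filter on low counts; the remaining lists shown have negative ones.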

How the data were processed

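RNA of sorted Treg cells was measured in 5 WT-labelled and 3 KO-labelled libraries made with SMART-Seq v4, a kit for small inputs without strand marking, per the labels' protocols. The authors deposited estimated counts per gene; their processing notes list, with no version or role, mm10, RSEM, HISAT2, StringTie, fastp and DESeq2, per the submitters' processing notes. Which annotation they used was not given in the sources used here. The authors' group means were not used: the deposited WT mean equalled that of the 5 WT-labelled columns, within 0.001 counts, for 21069 of 57180 genes, and the KO mean for all 57180. No (0) other column held per-sample values. Gene lengths are those deposited.

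Counts were rounded and tested with edgeR 4.0.16 in R 4.3.3 (filterByExpr with minimum count 10, TMM, two-sided quasi-likelihood test, KO against WT, 8 libraries, Benjamini-Hochberg over 14755 genes, adjusted p under 0.05). The 95% intervals use a standard error derived from F (absolute change divided by its root). Alternatives used DESeq2 1.42.0, limma-voom 3.58.1, other scalings, filters and library subsets. Coordinates came from GENCODE M21, in which 51933 of 57180 identifiers were found. All 138 listed symbols were found. Totals of 4314445 to 17977089 counts limit low genes, and limits of a 0 count cover counting error only. No 2 libraries of a group agreed within sampling noise (chi-square per degree of freedom at least 67.0). Simulated counts of 14755 genes were used to test the steps. At a dispersion of 0.1 edgeR recovered 100% of genes changed 4-fold, with 10 of 210 calls false. With the common dispersion of the data (1.67) given to every gene it recovered 0%.

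The members and lists were chosen with earlier results of these data known. Named were all members, and from each other list those past the threshold or, as none passed, the 2 with the highest mean normalised CPM; other genes are marked where chosen later. Nearest genes in pattern were sought for Tnfrsf18, Tnfrsf4 and Tnfrsf9, 3 each, by the mean absolute difference of centred log2 normalised CPM (0.5 added). Figures were drawn with matplotlib 3.10.9.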

Additional observations from a re-analysis of the deposited data

Results flagged for a closer look

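Tnfrsf1b had 1 WT-labelled library far from the others: WT 5 stood at 252 normalised CPM, and the gap to the next library was 0.839 of the range of the 5, above the critical 0.71. Of the 10 members, checked in the WT-labelled group, 1 met this limit; chance gives about 1 in 20 groups. WT 5 was also the library with the highest erythroid marker sum, whose part in the value was not tested.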

How the results depend on the processing

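By edgeR 0 genes were called with all libraries (2124 at an unadjusted p under 0.05), and 0 with any single library left out (0 to 0). The count was 1 with total counts only, 1 without a filter and 1 with a mean of at least 5 CPM, in each case the pseudogene Rps3a3, named after its values were seen; limma-voom called 22 genes and DESeq2 2421. The median of all genes tested was −0.42 with TMM, −0.72 with DESeq2's size factors and 0.21 with total counts only. The members' median kept its sign under all 19 alternatives; with a library left out it ranged from −1.90 to −0.99. Turned in sign were Tnfrsf1b without WT 5 (0.26; with single libraries left out −2.67 to 0.26), Traf2 with total counts only (0.30), without WT 5 (0.22; −0.63 to 0.22) and among protein-coding genes (0.14), and Traf3 without KO 2 and KO 3 together (0.13), a setting chosen after seeing the data. Tnfrsf9, Tnfrsf18 and Traf1 passed in DESeq2 alone. Tnfrsf14 was not tested at a mean of at least 5 CPM. With a replicate block on replicates 1 to 3, 0 genes were called and the members' median was −1.02. Same-numbered libraries had correlations of deviations of 0.017, 0.020 and 0.047. WT 1 to 3 each correlated best with the KO-labelled library of the same number. KO 1 however correlated best with WT 4 (0.046) and KO 2 with WT 3 (0.021), so the numbers were not taken to pair the libraries.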

Other observations

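Neighbouring genes of the set did not keep a fixed ratio. Tnfrsf18 and Tnfrsf4, 9.55 kb apart, had a ratio of counts per length, Tnfrsf18 over Tnfrsf4, of 1.08, 0.209, 1.11, 1.28 and 0.881 in WT 1 to 5 and 0.376, 0.061 and 1.22 in KO 1 to 3. This ratio needs no scaling between libraries. The groups overlapped, and WT 2 and KO 2 had the lowest values of their groups.

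Over the 8 libraries, the protein-coding genes nearest in pattern to Tnfrsf9, among 10767, were Orc4, Pcm1 and Nxf1, with mean absolute differences of 0.507, 0.546 and 0.548 in log2 normalised CPM, beside a median of 2.14. Traf1 was the nearest member to Tnfrsf9, at 0.863 and place 188. Nearest to Tnfrsf4 were Fgfr1op2, Lpxn and Eif4a1 (0.277, 0.278 and 0.292), and nearest to Tnfrsf18 were Atp5f1d, Sugt1 and Mrpl58 (0.467, 0.476 and 0.523). Tnfrsf18 and Tnfrsf4 differed from each other by 1.24.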
